A study of Mus musculus with 6 samples.

Results

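Glutathione is a small thiol peptide that keeps proteins and lipids of the cell reduced. Its production starts with the import of cystine, passes through glutamate-cysteine ligase and glutathione synthetase, and is followed by cycles in which glutathione peroxidases spend it on peroxides and glutathione reductase recovers it with NADPH. In macrophages, which make reactive oxygen species after contact with bacterial products, this cycle is a main defence of the cell against its own oxidants. The 10 genes described here encode these steps and were chosen by symbol: Slc7a11 for cystine import, Gclc, Gclm and Gss for synthesis, Gsr for recycling, Gpx1, Gpx3 and Gpx4 for peroxide removal, and Chac1 and Chac2 for glutathione breakdown. All 10 were found among the 52550 genes of the deposited table, and all 10 passed the filter on low counts that 16287 genes passed.

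The mRNA was from bone marrow-derived macrophages (BMDMs) of C57BL/6 mice, with 3 libraries per genotype described as biological replicates. In the GIT1 CKO mice (CKO), Cre driven by the myeloid gene Lyz2 acted on floxed Git1, and the GIT1 fl/fl mice (control) had floxed Git1 and no Cre. Both groups shared the floxed alleles, a 7-day culture with 25 ng/mL M-CSF (the growth factor that turns marrow cells into macrophages) and treatment with 100 ng/mL LPS, an endotoxin that activates macrophages. No library was untreated, so the response of these genes to LPS itself was not measured, and the age of the marrow donors remained unstated in the sources used here.

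The libraries held 61895190 to 157485640 counts, with more in each CKO library than in any control library. Git1, which encodes a scaffold protein, was at 72.8, 74.5 and 73.8 CPM (counts per 1000000 of the library total after TMM scaling) in CKO libraries 1, 2 and 3 and at 71.9, 103 and 82.2 CPM in control libraries 1, 2 and 3. Counts over the whole gene include any exons that Cre leaves in place and do not check the deletion. Of 10 macrophage markers all 10 were detected, and their summed level was 29817 to 31721 CPM in CKO and 46828 to 54554 CPM in control BMDMs. Lyz2, which drives Cre and was itself lower in CKO, gave 15379 to 16947 CPM and 31760 to 39522 CPM of these sums. The other 9 markers summed to 14438 to 14880 CPM in CKO and 15031 to 15324 CPM in control BMDMs. Among them, Adgre1 (3966 to 4011 against 2195 to 3254 CPM) and Fcgr1 (453 to 505 against 293 to 363 CPM) were higher in CKO without overlap. Csf1r, Mertk and Cd163 went the other way, lower in CKO without overlap, and the rest of the 9 overlapped. Summed markers of B cells (18.0 to 19.4 against 13.0 to 15.6 CPM), T cells (27.1 to 31.7 against 19.5 to 22.5), endothelial cells (22.1 to 23.9 against 11.0 to 12.2) and osteoclasts (1393 to 1431 against 934 to 1232) were higher in CKO without overlap. Nearly all of the B cell sum was Cd79b, nearly all of the T cell sum was Cd4, and most of the others was Pecam1 and Mmp9, while Pax5 and Cd3e were at or below 0.0596 CPM and Cd3g and Calcr had 0 counts. Acp5, an osteoclast enzyme, was lower in CKO without overlap, at 12.9 to 16.6 against 17.9 to 19.6 CPM. The neutrophil, erythroid, NK cell, mast cell, stromal and dendritic cell sums overlapped between the groups. Y-linked genes had 0 to 4 counts in the CKO libraries and 1776 to 5104 in the control libraries, and Xist, the RNA of the inactive X chromosome, was at 1051 to 1111 CPM in CKO and at 226 to 607 CPM in control libraries. The control libraries thus held transcripts of both sexes in amounts that differed by library, the sex of the marrow donors and the genotype cannot be told apart, and none of the 10 genes lies on a sex chromosome. In such bulk libraries, fewer cells of a type and less RNA per cell cannot be told apart either, and the part of these differences in the values of the 10 genes was not tested.

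No gene of the 10 passed an adjusted p under 0.05 by the quasi-likelihood test of edgeR, where 0.485% of the genes tested were called higher and 0.270% lower in CKO. Slc7a11, Gclm and Chac2 were higher and Gpx3, Gss and Gsr lower at an unadjusted p under 0.05, a level that 9.06% and 8.45% of the genes tested reached in these directions. DESeq2 and limma-voom each called 1 of the 10, Gpx3, as lower, beside 1.64% and 0.319% of their genes tested. The rule of the study was a fold change of more than 1.5 and an unadjusted p below 0.05. By it, Slc7a11 and Chac2 were higher and Gpx3 was lower, where 6.48% of the genes tested passed upward and 2.14% downward. Chac2 did not pass with upper-quartile scaling, with thinned counts, or without CKO replicate 2, control replicate 1 or control replicate 3. After correction for GC content, described further on, neither Slc7a11 nor Chac2 passed, and Gpx3 did. The 3 CKO libraries all lay above the 3 control libraries for Gclc, Gclm, Slc7a11 and Chac2, against 13.6% of the genes tested. They all lay below for Gss, Gsr and Gpx3, against 15.1%. Gpx1, Gpx4 and Chac1 overlapped. The median log2 fold change (CKO over control) was -0.01 over the 10 genes, with 5 above 0 and 5 below, and 0.01 over all genes tested.

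**Figure D1:**
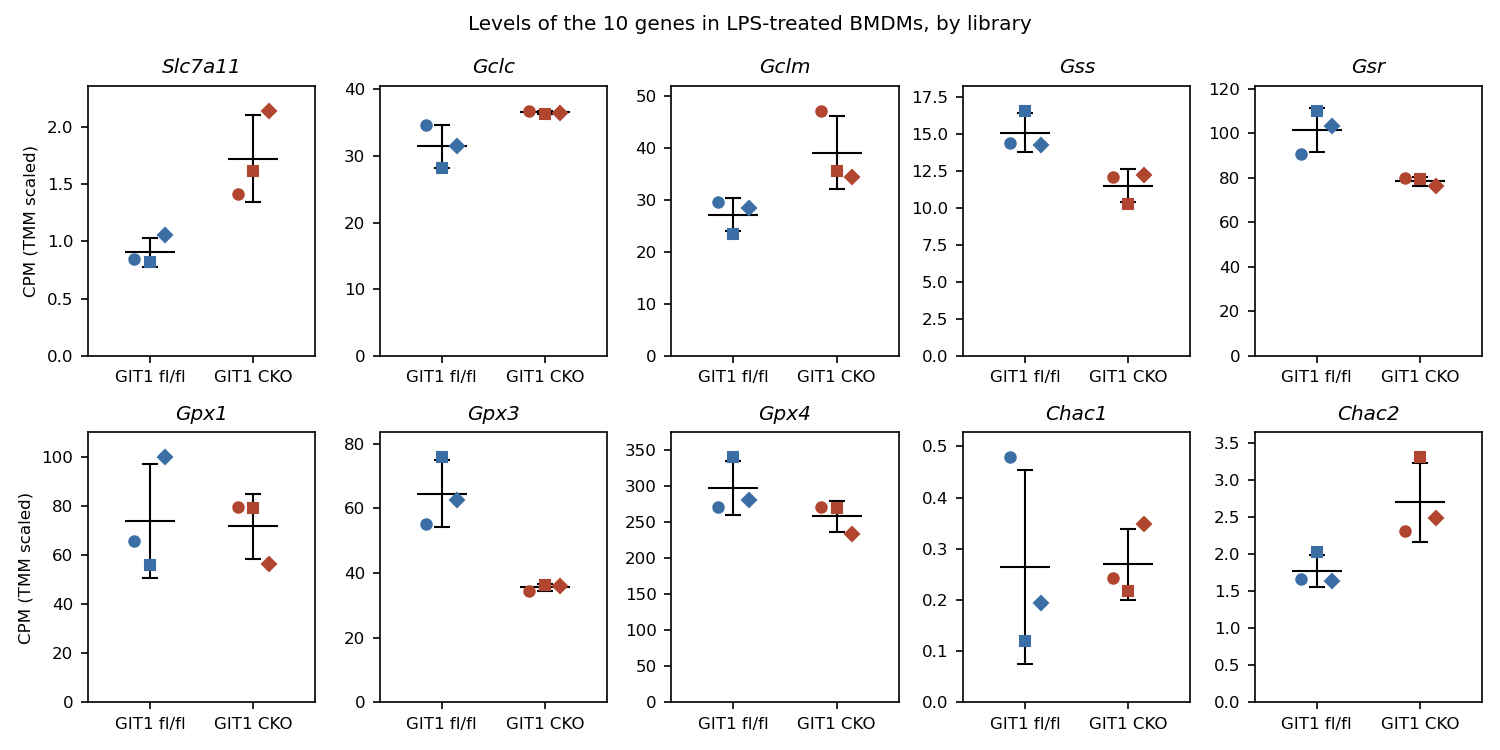
CPM of each of the 10 genes (y axes from 0, TMM scaled) in control (blue) and CKO (red) BMDMs, with 1 point per library (circle, square and diamond for replicates 1, 2 and 3) and the mean and SD of 3 libraries as a black bar. Gpx3 stood at 34.4 to 36.3 CPM in CKO and at 55.3 to 75.9 CPM in control libraries, while the groups overlapped for Gpx1, Gpx4 and Chac1.

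The plot of CPM by library shows every value, and in it the sets of points of each group are separate in 7 panels. The levels of the 10 genes spanned a wide range. Per kilobase of exon (the union of all annotated exons, so that genes of different length can be set side by side), Gpx4 had the highest mean level over the 6 libraries, 161 CPM per kb (range 135 to 197). It was followed by Gpx1 at 50.6 (38.8 to 69.5), Gsr at 32.7 (27.7 to 40.0) and Gpx3 at 27.6 CPM per kb (19.0 to 41.8), whose ranges overlapped from each to the next. The ligase subunits came next, Gclc at 9.03 (7.50 to 9.78) and Gclm at 5.27 CPM per kb (3.74 to 7.51), ranges that met only at their edges. Gss at 2.25 (1.73 to 2.80) and Chac2 at 1.70 CPM per kb (1.24 to 2.51) overlapped. Chac1 at 0.163 (0.0728 to 0.293) and Slc7a11 at 0.0944 CPM per kb (0.0588 to 0.154) were lowest and overlapped as well. The peroxidases and the reductase thus had the 4 highest levels, and the cystine transporter was at the low end, on a union of exons of 13922 bases that includes every annotated isoform.

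**Figure D2:**
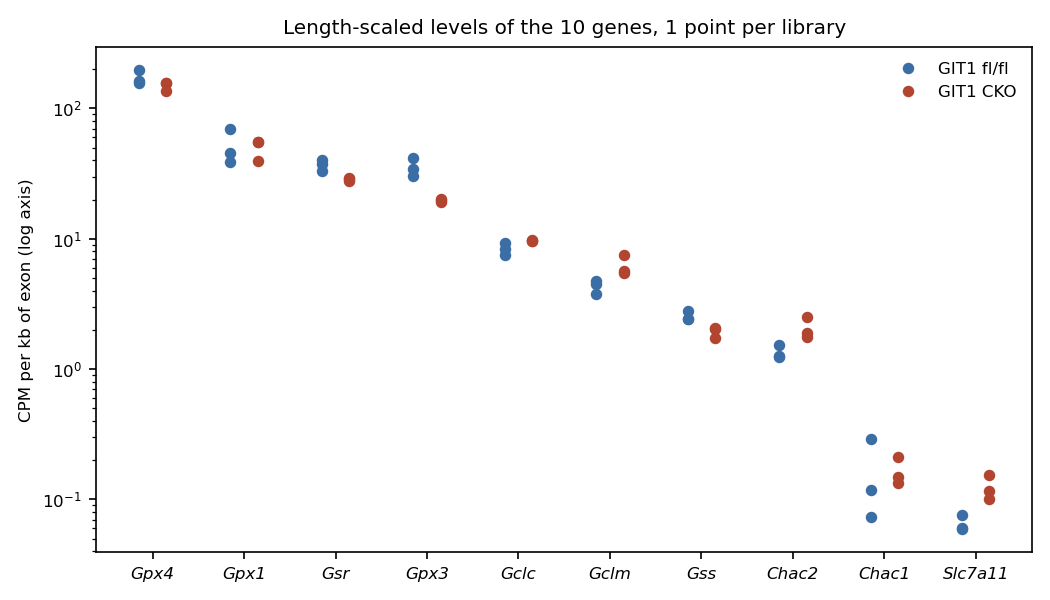
CPM per kilobase of exon (y axis, log scale) of the 10 genes (x axis, ordered by mean level), with 1 point per library in blue for control and red for CKO BMDMs. The means ran from 161 for Gpx4 to 0.0944 for Slc7a11.

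Slc7a11 encodes the transport subunit of system xc-, which exchanges extracellular cystine for glutamate, and lies on chromosome 3 (49892526 to 50443614, minus strand, GRCm38). Its RefSeq promoter window (250 bases before to 50 after the start, GRCm38.p6) is shown because it holds 2 matches to the CARE motif TGATGNAAN, the C/EBP-ATF response element that ATF4 can bind, at -66 to -58 and, on the opposite strand, at -48 to -40 from the start. Capitals mark the matches in the line that follows.
Slc7a11, chr3:50443564-50443863, minus strand: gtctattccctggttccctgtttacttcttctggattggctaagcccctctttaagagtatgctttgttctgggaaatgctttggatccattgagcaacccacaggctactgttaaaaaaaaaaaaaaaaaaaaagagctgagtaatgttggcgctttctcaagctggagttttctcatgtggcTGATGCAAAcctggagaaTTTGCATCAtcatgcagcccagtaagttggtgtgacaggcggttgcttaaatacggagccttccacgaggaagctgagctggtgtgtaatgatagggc
Windows were found for 8 of the 10 genes, all but Gclc and Gsr, and 2 of these 8 matched CARE on either strand, against 3.95% of 32851 promoter windows. A match in a window is a description of its letters only.

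Slc7a11 was at 1.41, 1.62 and 2.14 CPM in CKO libraries 1, 2 and 3 and at 0.847, 0.819 and 1.05 CPM in control libraries 1, 2 and 3. These rested on 186, 260 and 172 counts in CKO and on 53, 55 and 65 counts in control. Every CKO library was above every control library, with CKO replicate 3 highest. The mean was 1.72 ± 0.377 CPM (SD, n = 3) against 0.906 ± 0.128 CPM. The log2 fold change was 0.92 (standard error 0.255, 95% interval 0.32 to 1.53, adjusted p = 0.168 from edgeR), the highest of the 10. After removal of each library's GC trend, which is described further on, it was 0.40 (adjusted p = 0.485). Slc3a2, the heavy chain that carries the transporter to the membrane, was at 150, 148 and 152 CPM in CKO and 135, 168 and 160 CPM in control, which overlapped. Slc7a11 counts per Slc3a2 count were 0.00941, 0.0109 and 0.0141 in CKO and 0.00628, 0.00487 and 0.00659 in control libraries. The groups did not overlap in this ratio, with a log2 difference of 0.95 and an exact permutation p of 0.1 (two-sided), the smallest that 3 libraries against 3 can give (0.2 adjusted over the 4 ratios tested here). This ratio was not corrected for GC content, which was 40.7% for Slc7a11 and 53.4% for Slc3a2.

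Glutamate-cysteine ligase, the rate-limiting enzyme of glutathione synthesis, consists of a catalytic subunit encoded by Gclc (chromosome 9, 77754535 to 77794485, plus strand) and a modifier subunit encoded by Gclm (chromosome 3, 122245557 to 122270732, plus strand). The RefSeq window of Gclm is shown because it was the 1 window of these genes with a match to the core of the antioxidant response element, TGACNNNGC, which NRF2 can bind. This core was searched on both strands, matched 12.39% of all 32851 windows and lies at -134 to -126 from the start of Gclm on the opposite strand, in capitals.
Gclm, chr3:122245307-122245606, plus strand: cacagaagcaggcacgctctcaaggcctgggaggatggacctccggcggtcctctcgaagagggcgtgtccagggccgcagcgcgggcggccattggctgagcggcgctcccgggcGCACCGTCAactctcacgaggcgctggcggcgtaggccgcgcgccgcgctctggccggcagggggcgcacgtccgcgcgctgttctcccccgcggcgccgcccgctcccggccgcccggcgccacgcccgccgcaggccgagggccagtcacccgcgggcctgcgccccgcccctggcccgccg
Gclc was at 36.8, 36.4 and 36.4 CPM in CKO and at 34.7, 28.2 and 31.5 CPM in control libraries. The 3 CKO values were nearly equal, and control replicate 1 came close to them. On the log2 scale the difference of Gclc was 0.22 (standard error 0.109, interval -0.04 to 0.48, adjusted p = 0.349 from edgeR). Gclm was at 47.2, 35.6 and 34.5 CPM in CKO and at 29.6, 23.5 and 28.5 CPM in control libraries, so that CKO replicate 1 stood above the other 2 of its group. Its log2 fold change was 0.52 (standard error 0.163, interval 0.14 to 0.91, adjusted p = 0.194 from edgeR). It was 0.37 without CKO replicate 1 and 0.14 (adjusted p = 0.708) with the GC trend removed. The model of Gclm overlaps Gm17494 on the minus strand, with 1206, 1455 and 335 counts in CKO and 231 to 242 in control libraries. It also overlaps Gm6061 on its own strand, with 507, 3021 and 103 counts against 44 to 208. Whether counting used the strand remained unstated in the sources used here, and reads shared between these models were not tested. The count ratio of Gclc to Gclm was 0.780, 1.02 and 1.06 in CKO and 1.17, 1.20 and 1.11 in control libraries. All 3 CKO ratios were thus lower, by a log2 difference of -0.29 with an exact permutation p of 0.1 (0.2 adjusted over the 4 ratios), and the difference was -0.16 without CKO replicate 1. The ratio was not corrected for GC content, which was 47.7% for Gclc and 42.1% for Gclm. With the GC trend removed, their log2 fold changes from edgeR were 0.18 and 0.14, close to each other.

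Glutathione synthetase, encoded by Gss (chromosome 2, 155563181 to 155592810, minus strand), adds glycine in the last step of synthesis. Gss was at 12.1, 10.2 and 12.2 CPM in CKO and at 14.4, 16.6 and 14.2 CPM in control libraries. Every CKO value was below every control value, the opposite direction to both ligase subunits. The fitted difference was -0.39 (standard error 0.129, interval -0.70 to -0.08, adjusted p = 0.213 from edgeR), and it was -0.41 with the GC trend removed. The model of Gss overlaps Acss2 on the other strand (1125, 1412 and 607 counts in CKO and 669 to 734 in control libraries), and shared reads were not tested.

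Glutathione reductase, encoded by Gsr (chromosome 8, 33652523 to 33698163, plus strand), returns oxidized glutathione to its reduced form at the cost of NADPH. Gsr was at 79.9, 79.3 and 76.3 CPM in CKO libraries 1, 2 and 3 and at 90.7, 110 and 103 CPM in control libraries 1, 2 and 3. The CKO values lay within a few CPM of each other and below every control value. The mean was 78.5 ± 1.93 CPM (SD, n = 3) against 101 ± 9.90 CPM, and the log2 fold change was -0.37 (standard error 0.104, interval -0.62 to -0.12, adjusted p = 0.172 from edgeR). Without control replicate 1, the lowest of its group, Gsr was called lower, with a log2 fold change of -0.45 and an adjusted p of 0.0425 from edgeR, as were 1.79% of the genes tested without that library. Its value kept its sign in all 16 alternatives, with an adjusted p from 0.0425 to 0.507.

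Glutathione peroxidases reduce peroxides with glutathione and carry selenocysteine in the active site in the 3 enzymes described here. Gpx3 (chromosome 11, 54902453 to 54910377, plus strand) encodes the secreted peroxidase of plasma and extracellular fluid. It was at 34.4, 36.3 and 35.9 CPM in CKO libraries 1, 2 and 3 and at 55.3, 75.9 and 62.6 CPM in control libraries 1, 2 and 3. The CKO libraries had a coefficient of variation of 2.81% and lay far below the lowest control library, while that of the control libraries was 16.2%, and over 6696 genes of at least 20 CPM on average the median was 4.06% in CKO and 14.9% in control. The mean was 35.6 ± 0.999 CPM (SD, n = 3) against 64.6 ± 10.4 CPM, a fold of 0.551. On the log2 scale this was -0.86 (standard error 0.136, interval -1.19 to -0.54), with an unadjusted p of 0.000468, the smallest of the 10 genes and rank 139 of all 16287, and an adjusted p of 0.0549 from edgeR. The adjusted p lay on either side of 0.05 with the setting, from 7.98e-05 with DESeq2 to 0.309 by edgeR without CKO replicate 2. It was 0.0472 with limma-voom and 0.00318 by edgeR with the GC trend removed, where the log2 fold change was -0.71. Without control libraries 1, 2 and 3 it was 0.0153, 0.0221 and 0.232, and without CKO replicates 1 and 3 it was 0.274 and 0.127, all from edgeR. The log2 fold change ran from -0.96 to -0.70 in these leave-one-out comparisons, and its sign held in all 16 alternatives.

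Gpx1 and Gpx4 encode peroxidases inside the cell. Gpx1 (chromosome 9, 108338903 to 108340343, plus strand) is the main cytosolic enzyme for hydrogen peroxide. It was at 79.9, 79.3 and 56.7 CPM in CKO and at 65.8, 55.9 and 100 CPM in control libraries. The groups overlapped widely, and both the lowest and the highest value were control libraries. The log2 fold change of -0.04 had an interval of -0.63 to 0.55 (standard error 0.248, adjusted p = 0.942 from edgeR). Any difference within this interval is compatible with these libraries, so equal levels were not shown. The sign of the log2 fold change turned in 6 of 16 alternatives. Gpx4 (chromosome 10, 80047166 to 80056439, plus strand) reduces lipid peroxides in membranes and is the peroxidase that protects cells from ferroptosis, an iron-dependent form of cell death. It was at 271, 270 and 233 CPM in CKO and at 270, 340 and 281 CPM in control libraries, which overlapped by control replicate 1. Its log2 fold change was -0.20 (standard error 0.122, interval -0.49 to 0.09, adjusted p = 0.418 from edgeR) and -0.03 with the GC trend removed. The count ratio of Gpx1 to Gpx4 was 0.295, 0.294 and 0.243 in CKO and 0.243, 0.164 and 0.357 in control libraries, with overlap and an exact permutation p of 0.8.

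Chac1 and Chac2 encode gamma-glutamyl cyclotransferases that split glutathione in the cytosol. Chac1 (chromosome 2, 119351229 to 119354381, plus strand) is induced by ATF4 in the unfolded protein response. The RefSeq window of Chac1 is shown for comparison with that of Slc7a11, as the other window with a match to TGATGNAAN, here on the opposite strand at -194 to -186 from the RefSeq start (in capitals).
Chac1, chr2:119350992-119351291, plus strand: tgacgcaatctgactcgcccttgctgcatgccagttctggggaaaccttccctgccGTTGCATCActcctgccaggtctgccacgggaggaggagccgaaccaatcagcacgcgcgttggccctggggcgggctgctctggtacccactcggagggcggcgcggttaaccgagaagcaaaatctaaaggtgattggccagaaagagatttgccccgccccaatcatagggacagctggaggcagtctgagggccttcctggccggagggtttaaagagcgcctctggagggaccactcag
Chac1 was at 0.243, 0.217 and 0.349 CPM in CKO and at 0.479, 0.119 and 0.194 CPM in control libraries, from 32, 35 and 28 and from 30, 8 and 12 counts. The control libraries held both the highest and the lowest value. The log2 fold change of Chac1 was 0.02, with an interval of -1.41 to 1.46 (standard error 0.601, adjusted p = 0.988 from edgeR). Any difference of Chac1 within this wide interval is compatible with these libraries, so equal levels were not shown. Chac2 (chromosome 11, 30976707 to 30986350, minus strand) encodes a slower enzyme that is present without stress. It was at 2.31, 3.30 and 2.48 CPM in CKO and at 1.66, 2.03 and 1.64 CPM in control libraries, from 304, 532 and 199 and from 104, 136 and 101 counts. The groups did not overlap, with CKO replicate 2 highest. The log2 fold change was 0.60 (standard error 0.218, interval 0.08 to 1.12, adjusted p = 0.238 from edgeR), and its sign turned with the GC trend removed, to -0.26 (standard error 0.435, adjusted p = 0.762 from edgeR). Chac2 overlaps Asb3 on the other strand, with 1968, 2405 and 1268 counts in CKO and 1217, 448 and 838 in control libraries, and shared reads were not tested. Chac1 counts per Chac2 count were 0.105, 0.0658 and 0.141 in CKO and 0.288, 0.0588 and 0.119 in control libraries, with overlap and an exact permutation p of 0.7.

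**Figure D3:**
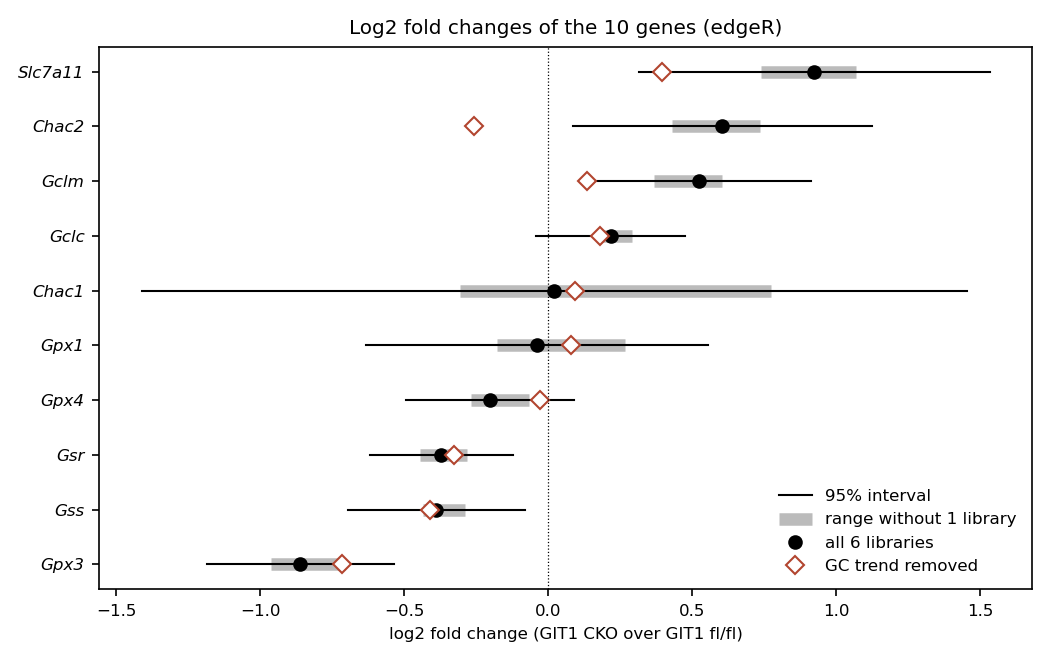
Log2 fold change (x axis, CKO over control) of the 10 genes from edgeR with all 6 libraries (points, with 95% intervals as lines), the range when 1 library was left out (grey bars) and the value with the GC trend removed (open diamonds). The grey bars of Gpx1 and Chac1 cross 0, and the diamond of Chac2 lies at -0.26, on the other side of 0 from its point at 0.60.

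The plot of fold changes sets these values beside each other. The intervals of 6 genes, Slc7a11, Chac2, Gclm, Gsr, Gss and Gpx3, do not reach 0 before adjustment for the number of genes tested. Control replicate 2 was the highest or the lowest library of its group for 10 of the 10 genes, as it was for 83.8% of the genes tested. For 6 of the 7 genes whose groups did not overlap it was also the control library farthest from CKO, and this held for 65.1% of the 4681 genes tested without overlap.

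Differences between the groups also moved with the GC content of the transcripts. Across genes, which are not independent replicates, the Spearman correlation of the deviation of a library from the mean of the other 5 with GC content was -0.342, -0.351 and -0.390 in CKO libraries 1, 2 and 3 and -0.419, 0.650 and 0.199 in control libraries 1, 2 and 3. Control replicates 2 and 3 had the opposite sign to the other 4 libraries. The median log2 fold change of the genes tested was 0.56 for the 1037 genes under 40% GC, 0.27 at 40 to 45%, 0.04 at 45 to 50%, -0.11 at 50 to 55%, -0.17 at 55 to 60% and -0.20 above 60%. The 4 genes with higher values in all CKO libraries had the lowest GC content of the 10: 37.6% for Chac2, 40.7% for Slc7a11, 42.1% for Gclm and 47.7% for Gclc. Gss had 48.2% and Gsr 50.1%, and the peroxidases and Chac1 had 56.0% to 60.2%. Gpx3, at 56.0%, had a value of -0.86 where the median of the genes at 55 to 60% was -0.17, and Gpx4, at 60.2%, had a value of -0.20, the same at this rounding as the median above 60%. After this trend was removed from each library, 1 of the 10 genes was called, Gpx3, beside 2.26% of the genes tested called lower, and 1 passed the rule of the study, again Gpx3, beside 2.61% lower by that rule. Gclc, Gss and Gsr, at mid GC content, moved little (0.18, -0.41 and -0.33), while Slc7a11, Gclm and Chac2 moved to 0.40, 0.14 and -0.26. The part of GC content in the values without this correction was not tested further.

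**Figure D4:**
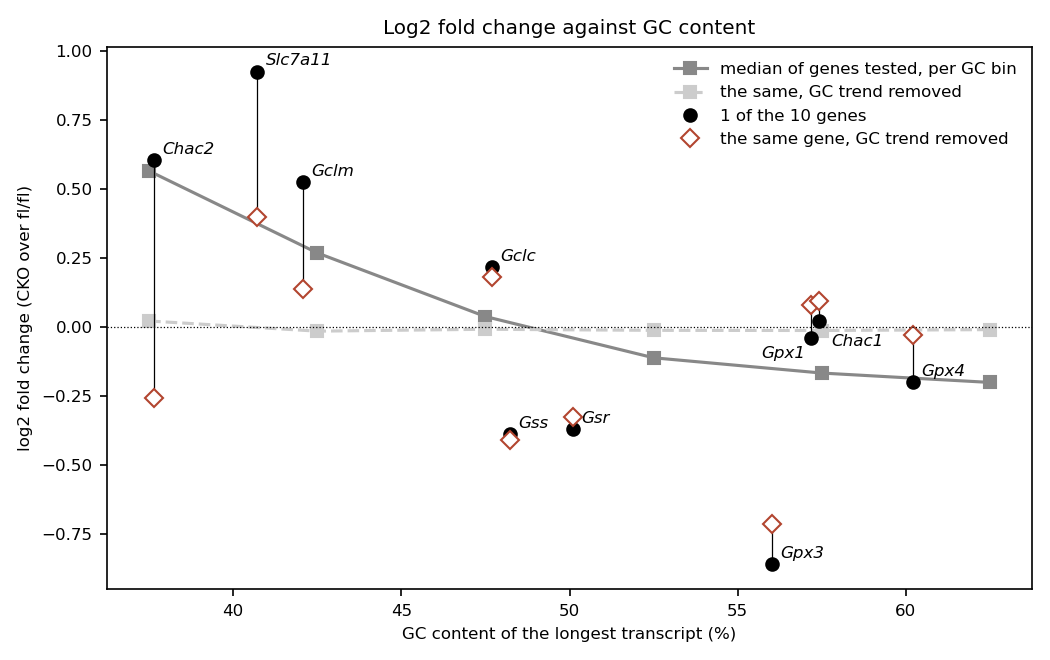
Log2 fold change (y axis) against the GC content of the longest transcript in percent (x axis) for the 10 genes before (black points) and after (open diamonds) removal of the GC trend of each library, with the median of the genes tested in 6 bins of GC content (grey squares, drawn near the middle of each bin). The grey line falls from 0.56 under 40% to -0.20 above 60%, and Gpx3 stays at -0.71 after removal.

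The other genes of glutathione metabolism and its regulation were taken from 10 lists with 74 genes, of which 67 were tested. None of the 67 passed an adjusted p under 0.05 by edgeR. At an unadjusted p under 0.05, 7 were higher and 7 lower, beside 9.06% and 8.45% of all genes tested. DESeq2 called 6 (5.10% of all its genes tested were called in either direction) and limma-voom called 1, Glrx (0.896%). The median log2 fold change was -0.09, with 26 genes above 0 and 41 below, where 50.9% of all genes tested were above 0. At the rule of the study 5 were higher and 0 lower: Slc7a5, Me1, Mthfd2, Tfrc and Asns. Of all genes tested, 6.48% passed this rule upward and 2.14% downward, so the upward count of the 67 lies near the share of all genes.

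Among 6 tested genes of cystine import and cysteine supply, Slc7a5, a transporter of large neutral amino acids that also pairs with Slc3a2, was at 0.80 on the log2 scale (adjusted p = 0.145 from edgeR), while Slc3a2 was at -0.04. The 8 tested genes of the gamma-glutamyl cycle and of glutathione breakdown had a median of -0.16, with 6 below 0. The most expressed of them were Anpep, an aminopeptidase (-0.07), and Cndp2, a dipeptidase (-0.09). Of the other peroxidases, Gpx2, Gpx5 and Gpx6 had 0 counts in every library. Gpx7 and Gpx8, enzymes of the endoplasmic reticulum, stood at -0.65 and 0.66 at mean levels of 1.05 and 0.383 CPM in CKO. Their standard errors were 0.281 and 0.681 (adjusted p = 0.294 and 0.62 from edgeR). The groups did not overlap for Gpx7 but did for Gpx8, which had 24, 4 and 18 counts in control libraries 1, 2 and 3. The glutaredoxin list of 5 genes also held Ptges2, which encodes a prostaglandin E synthase. In it, Glrx, which encodes an enzyme that uses glutathione to reduce protein disulfides, was at 77.1 CPM in CKO and 52.5 CPM in control BMDMs. Its log2 fold change was 0.55 (adjusted p = 0.053 from edgeR, 0.000164 from DESeq2 and 0.0449 from limma-voom), and Glrx3 was at 0.12. The 6 genes of glutathione transport had no gene at an unadjusted p under 0.05, with Abcc1, an exporter of glutathione and its conjugates, at -0.16 and Abcc5 at -0.11.

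The 8 genes of NADPH supply, which feeds glutathione reductase, had the lowest median of the lists, -0.24. G6pdx, the first enzyme of the pentose phosphate pathway, was at -0.23 and Idh2 at -0.39, both at an unadjusted p under 0.05 (adjusted p = 0.254 and 0.241 from edgeR), while Me1, malic enzyme, was at 0.87 and Mthfd2, a mitochondrial folate enzyme, at 0.96 (adjusted p = 0.189 and 0.0705 from edgeR). The 8 genes of selenoprotein synthesis, which the peroxidases need, had a median of -0.14, with Sephs2, which makes selenophosphate, at -0.25 and Scly, which frees selenium from selenocysteine, at -0.21. Of 8 tested modifiers of ferroptosis, Tfrc, the transferrin receptor, was at 1.11 (adjusted p = 0.24 from edgeR). Its GC content was 39.8%, and with the GC trend removed Tfrc was at 0.70 (adjusted p = 0.0469 from edgeR). It stood at 95.6, 106 and 104 CPM in CKO and at 74.9, 22.0 and 44.9 CPM in control libraries. Gch1 of the same list was at 0.49 (adjusted p = 0.12 from edgeR and 0.0217 from DESeq2). Of the 9 genes of the ATF4 branch, Asns, asparagine synthetase, was at 1.11 (adjusted p = 0.0883 from edgeR). Eif2ak3, which encodes the kinase PERK, was at -0.45 (adjusted p = 0.123 from edgeR) and was the 1 lower gene among the 6 that DESeq2 called (adjusted p = 0.027). Atf4 itself was at 0.05 and Trib3 at -0.03, beside the values of 0.92 and 0.02 for Slc7a11 and Chac1, which ATF4 can induce. The rest of this list lay on both sides of 0, with Ddit3 at 0.26, Atf3 at 0.21, Sesn2 at -0.28, Ddit4 at -0.21 and Eif2ak4 at -0.23. These are mRNA levels, and the activity of the ATF4 protein was not measured here. The 7 regulators of NRF2 had no gene at an unadjusted p under 0.05, with Nfe2l2, which encodes NRF2, at 0.03 and Bach1, which encodes a repressor of its targets, at 0.08.

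**Figure D5:**
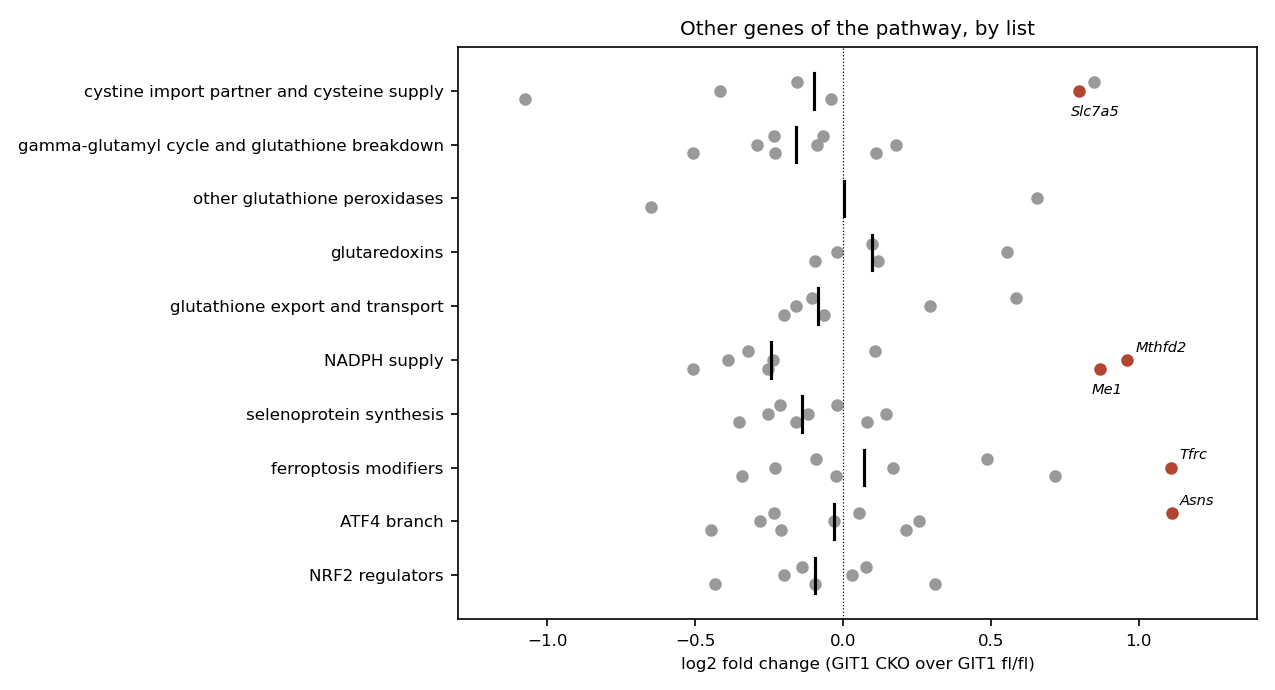
Log2 fold change (x axis, CKO over control) of the 67 tested genes of the 10 lists (rows), with 1 point per gene, in red for genes past the rule of the study, and the median of each list as a black bar. The 5 red points, Slc7a5, Me1, Mthfd2, Tfrc and Asns, lie between 0.80 and 1.11, and the medians lie between -0.24 and 0.10.

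The plot of the lists shows points on both sides of 0 in each of the 10 rows. The highest median was that of the glutaredoxin list (with Ptges2) at 0.10 and the lowest that of NADPH supply.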

How the data were processed

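The mRNA of LPS-treated BMDMs was sequenced in 3 GIT1 CKO and 3 GIT1 fl/fl libraries. The submitters' processing notes name fastp 0.17.1, HISAT2 2.1.0, DESeq2 1.18.1 and R 3.4.3. Which tool counted the reads, with which strand setting and on which genome build, was not given in the sources used here. The deposited table held whole-number counts per gene and library, on which every test was run. The same table held, as a signal column per library, counts that the authors normalized, which were not used, and their fold changes, p-values and adjusted p-values, which were not used either. The columns labelled CWT were taken as GIT1 fl/fl, the only control group. The gene models of all 10 genes had the same ID, start and end in GENCODE M21 (GRCm38), which gave exon length and GC content.

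The analysis used edgeR 4.0.16 in R 4.3.3. The function filterByExpr (minimum count 10) kept 16287 of 25239 genes with any count. Libraries were scaled by TMM and the groups were compared with the robust quasi-likelihood F-test, with genotype as the only term. Benjamini-Hochberg adjustment covered every gene tested, and calls were made at an adjusted p under 0.05. The common biological coefficient of variation was 0.277. CPM are counts per 1000000 of the TMM-scaled total, intervals are 95% intervals of the fitted log2 fold change, and 4 count ratios were tested by two-sided exact permutation over libraries. The script was tested on simulated data. The p-values measure the spread between these libraries, whose separate animals the labels do not name.

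The 10 genes and the lists were chosen with earlier results of these data known. In each list the text names the genes that were called or passed the rule of the study, or, where there were none, the 2 most expressed. Slc3a2 was added as the partner of Slc7a11. The level of 1 marker gene is not reported here. Gpx2, Gpx5, Gpx6, G6pdx, Idh2, Gch1 and the genes of the ATF4 branch other than Asns were chosen once their values were known. The alternatives were DESeq2 1.42.0, limma-voom (limma 3.58.1), RLE, upper-quartile and total-count scaling, the filter left out, a minimum of 1 CPM in at least 3 libraries, thinning of each library to 61895190 counts, a block for the replicate number, removal of the GC trend of each library (lowess, span 0.3, GC known for 99.79% of genes tested) and leaving out each library in turn.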

Additional observations from a re-analysis of the deposited data

How the results depend on the processing

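The count of the 10 genes at an adjusted p under 0.05, which was 0, was 1 (Gpx3) with DESeq2, limma-voom, no filter, a filter of 1 CPM and the GC trend removed, and 0 to 2 without 1 library (2, Gsr and Gpx3, without control replicate 1). The count past the rule of the study, which was 3, was 1 with the GC trend removed, 2 with upper-quartile scaling and with counts thinned to equal totals (Chac2 lost) and 2 to 4 without 1 library. The count of other pathway genes called, which was 0, was 6 with DESeq2, 6 with the GC trend removed, 1 with limma-voom, total-count scaling, no filter and a filter of 1 CPM, and 0 to 4 without 1 library (4 where control replicate 1 or control replicate 2 was left out), beside 67 tested with all libraries. Over all genes, 4.98% were called with the GC trend removed, 6.79% when control replicate 1 was left out and 2.33% when control replicate 2 was. The causes were not tested. The log2 fold change of Gpx1 turned to 6.01e-05 with limma-voom, 0.00311 with total-count scaling, 0.00292 with no filter and 0.0781 with the GC trend removed, and was -0.179 to 0.268 without 1 library. That of Chac2 turned to -0.258 with the GC trend removed, and that of Chac1 was -0.305 to 0.772 without 1 library. The log2 difference of the ratio of Gpx1 to Gpx4 was -0.0952 to 0.464 and that of Chac1 to Chac2 -0.901 to 0.246 without 1 library. In all, 141 of the other values of the 10 genes kept direction and side of the threshold, 8 passed it in the same direction (Gpx3 and Gsr) and 10 reversed, and Chac1 gave no value with the filter of 1 CPM. With the replicate number as a block, edgeR called 1 gene in place of 123 and 0 of the 10. Libraries with the same number did not deviate together (Pearson's r across genes -0.05, 0.04 and 0.01). With 3 libraries per group and GC trends that differ by library, these values cannot decide whether the numbers pair the samples. What the numbers mark was not given in the sources used here. Chac1 had 8 to 35 counts per library, and its standard error was 0.601 with all counts and 0.605 with counts thinned to equal totals.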
